A study of Mus musculus with 19 samples.

Results

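The uroplakins and the keratins of the urothelium, the epithelium that lines the renal pelvis and the ureter, were followed in obstructed mouse kidneys. Members were the table entries named Upk1a, Upk1b, Upk2, Upk3a, Upk3b, Krt5, Krt7, Krt14, Krt19 and Krt20, which gave 10 genes (5 uroplakins and 5 keratins) of the 54532 in the count table. Bulk RNA-seq of whole kidneys was made from 19 male mice on a C57BL/6J background, aged 8 to 9 weeks, all subjected to UUO, the ligation and cutting of the left ureter, and all sampled on day 12. There were 5 wild-type (WT) mice given PBS, 5 rCD5L-treated WT mice, 4 CD5L-deficient (CD5L KO) mice given PBS and 5 rCD5L-treated CD5L KO mice, where rCD5L is recombinant CD5L protein injected intraperitoneally every day at 0.5 mg per mouse. No unobstructed kidney entered the comparisons, so every group carried the obstruction, and how much of the renal pelvis went into each RNA preparation is not given in the sources used here.

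Urothelium is layered, with basal cells below, intermediate cells above them and large umbrella cells facing the urine. Uroplakins are membrane proteins that assemble in the umbrella cells into rigid plaques, which make the surface tight to urine. The tetraspanin UPK1A pairs with UPK2 and the tetraspanin UPK1B pairs with UPK3A before they leave the endoplasmic reticulum, while UPK3B is a relative of UPK3A that is also made by mesothelium. Keratins form filaments from 1 acidic and 1 basic chain. KRT5 (basic) and KRT14 (acidic) are the pair of basal cells, KRT20 (acidic) marks umbrella cells but is also induced in injured proximal tubule, and KRT7 (basic) and KRT19 (acidic) are also made in collecting duct and injured tubule.

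In short, RNA of the plaque uroplakins and of Krt5 differed up to 18.1-fold between kidneys and rose and fell together from kidney to kidney, whereas Krt7 differed by no more than 1.48-fold and no correlation of Krt20 with the plaque uroplakins passed the test. No member passed the edgeR test in any of the 5 comparisons with all kidneys in place. In PBS-injected CD5L KO against WT mice, Upk3b passed with DESeq2 (adjusted p = 0.0476). Krt5 passed there with edgeR when replicate 3 of the WT mice was left out (adjusted p = 0.0236). The median log2 fold change of the 10 members in PBS-injected CD5L KO against WT mice was 0.62, or 0.42 without replicate 3 of the WT mice. For the plaque uroplakins and Krt5 as single genes, the pooled SD between kidneys of the same group was 0.72 to 0.91. It was 0.45 to 0.69 without that WT kidney.

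Between 17917491 and 23847090 counts were assigned to genes in each kidney. Levels are given as CPM, counts per unit of library total, scaled by TMM factors, which equalise the bulk of the genes between libraries. Cd5l itself was at 0 counts in all CD5L KO kidneys (a count of 0 allows up to 3) and at most at 15 in WT kidneys. Replicate 4 of the rCD5L-treated CD5L KO mice stood apart: 6 proximal tubule markers summed to 12499 CPM there against 873 to 2151 CPM in the other 18 kidneys, 6 injured tubule markers summed to 9396 against 13913 to 27499 CPM, and its TMM factor was 0.713 against 0.890 to 1.07. The labels do not say more of the replicates than that they are biological, so p-values measure the spread between these kidneys.

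All 10 genes were detected in every kidney, with 27 to 6468 counts. Per length, as FPKM (fragments scaled to gene length and library size), the median over the 19 kidneys fell in the order Krt19 (74.2), Krt20 (42.6), Krt7 (30.9), Krt5 (26.1), Krt14 (25.9), Upk1b (11.7), Upk1a (9.78), Upk3a (9.58), Upk2 (6.70) and Upk3b (1.98). Krt19 exceeded Krt20 and Upk2 exceeded Upk3b in 19 of 19 kidneys. Krt20 exceeded Krt7 in 17 kidneys, Krt14 exceeded Upk1b in 18 and Upk3a exceeded Upk2 in 18. Krt5 and Krt14 could not be put in order, since Krt5 was the higher in 9 of 19 kidneys, and the order was also loose for Krt7 over Krt5 (14 kidneys), Upk1b over Upk1a (16) and Upk1a over Upk3a (14). By these medians all the keratins, the basal cell pair Krt5 and Krt14 included, thus stood above the uroplakins, and Upk3b was the lowest of the 10.

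The members differed in how much kidneys of the same group varied. The pooled SD of log2 CPM within groups was 0.91 for Upk2, 0.85 for Krt5, 0.84 for Krt14, 0.79 for Upk1b, 0.77 for Upk3a and 0.72 for Upk1a. These 6 SDs exceeded those of 96.9% to 98.8% of the 15686 genes that averaged 0 or more on the log2 CPM scale, whose median SD was 0.24. It was 0.69 for Krt20, 0.42 for Upk3b, 0.39 for Krt19 and 0.12 for Krt7, the last lower than in most genes (11.2% of genes lay below it). Without replicate 4 of the rCD5L-treated CD5L KO mice, the SD of Krt20 fell to 0.30 and that of Krt19 to 0.24, and without replicate 3 of the PBS-injected WT mice that of Krt5 fell to 0.45. Without the latter kidney, 83.6% (Krt5), 89.7% (Upk1a), 90.3% (Upk3a) and 91.4% (Upk1b) of genes had a lower SD. The SDs of the other members moved by less than 1.5 times without either of these kidneys or without replicate 4 of the rCD5L-treated WT mice. In bulk RNA, fewer cells of a type and less RNA per cell cannot be told apart.

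Upk1a (ENSMUSG00000006313, chromosome 7 of GRCm38, 30603092 to 30612847, minus strand) and Upk2 (ENSMUSG00000041523, chromosome 9, 44452715 to 44454976, minus strand) encode the UPK1A and UPK2 pair of the plaque. Upk1a was at 25.9, 17.1, 3.91, 14.8 and 17.3 CPM in PBS-injected WT mice, 13.5, 23.0, 11.7, 5.12 and 13.3 CPM in rCD5L-treated WT mice, 22.6, 28.0, 16.7 and 33.9 CPM in PBS-injected CD5L KO mice, and 20.5, 26.6, 13.2, 18.03 and 16.0 CPM in rCD5L-treated CD5L KO mice. Upk2, the lowest of the plaque genes, was at 11.9, 6.9, 1.29, 8.28 and 8.9 CPM in PBS-injected WT mice, 5.46, 12.7, 5.26, 1.44 and 5.63 CPM in rCD5L-treated WT mice, 9.63, 12.9, 10.95 and 18.6 CPM in PBS-injected CD5L KO mice, and 11.1, 14.5, 6.28, 9.82 and 6.15 CPM in rCD5L-treated CD5L KO mice. Replicate 3 of the PBS-injected WT mice and replicate 4 of the rCD5L-treated WT mice were the lowest 2 kidneys for both genes, and all groups overlapped. As a ratio of FPKM, Upk1a to Upk2 stayed between 1.16 and 2.71 in the 19 kidneys (mean 1.68 ± 0.372, SD), although Upk2 itself differed 14.5-fold.

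Upk1b (ENSMUSG00000049436, chromosome 16, 38773184 to 38800328, minus strand) and Upk3a (ENSMUSG00000022435, chromosome 15, 85017141 to 85022547, plus strand) encode the other pair, and Upk3a is the uroplakin whose product reaches furthest into the cytoplasm. Upk1b was at 33.8, 30.2, 5.38, 29.6 and 30.9 CPM in PBS-injected WT mice, 23.0, 37.2, 19.4, 7.7 and 24.7 CPM in rCD5L-treated WT mice, 35.0, 42.9, 33.6 and 60.5 CPM in PBS-injected CD5L KO mice, and 36.8, 39.4, 22.0, 16.5 and 27.8 CPM in rCD5L-treated CD5L KO mice. Upk3a was at 17.8, 11.2, 2.43, 13.8 and 12.8 CPM in PBS-injected WT mice, 10.2, 22.2, 7.99, 4.77 and 9.18 CPM in rCD5L-treated WT mice, 16.7, 19.4, 18.4 and 27.9 CPM in PBS-injected CD5L KO mice, and 14.9, 19.99, 8.54, 9.89 and 10.6 CPM in rCD5L-treated CD5L KO mice. The same 2 WT kidneys were the lowest for both genes, and replicate 4 of the PBS-injected CD5L KO mice was the highest for both. The ratio of Upk1b to Upk3a, again of FPKM, was 0.845 to 1.41 (mean 1.15 ± 0.182, SD, n = 19) while each gene differed over 11-fold (11.2-fold for Upk1b and 11.5-fold for Upk3a). The partner genes of each plaque pair thus had a narrower ratio than the range of either gene, and so did Krt5 and Upk1b, which are not partners and belong to different cell layers (1.27 to 3.64, a 2.87-fold range).

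Upk3b (ENSMUSG00000042985, chromosome 5, 136038496 to 136046487, plus strand) was at 8.49, 8.25, 3.76, 9.19 and 6.63 CPM in PBS-injected WT mice, 7.5, 8.81, 6.41, 4.47 and 8.74 CPM in rCD5L-treated WT mice, 8.64, 11.7, 10.04 and 13.2 CPM in PBS-injected CD5L KO mice, and 8.86, 10.6, 12.8, 6.16 and 7.08 CPM in rCD5L-treated CD5L KO mice. It differed 3.50-fold between kidneys, less than the plaque genes. Replicate 3 of the rCD5L-treated CD5L KO mice had one of the highest levels of Upk3b (12.8 CPM) with a low level of Upk3a (8.54 CPM), so that the FPKM ratio of Upk3b to Upk3a was 0.465 there and 0.480 in replicate 3 of the PBS-injected WT mice, against a median of 0.193 over all kidneys. Mesothelium, the other source of Upk3b, was checked by its markers. Lrrn4 and Muc16 were at or near 0 (at most 1.84 and 0.639 CPM), and Nkain4 and Rspo1 did not exceed 4.77 and 5.08 CPM, but Msln, which the study also lists for urothelium, was at 3.96 to 23.5 CPM. The 7 mesothelial markers, Upk3b itself included, summed to 73.9 to 122 CPM in 18 kidneys. The sum was 269 CPM in replicate 4 of the rCD5L-treated CD5L KO mice, where Gpm6a took 257 CPM of it. Gpm6a was not low elsewhere, with a median of 70.7 CPM in that group. It was at 69.7 to 82.4 CPM in PBS-injected CD5L KO, 52.0 to 63.3 CPM in PBS-injected WT and 50.3 to 57.6 CPM in rCD5L-treated WT mice.

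Krt5 (ENSMUSG00000061527, chromosome 15, 101707070 to 101712898, minus strand) and Krt14 (ENSMUSG00000045545, chromosome 11, 100203162 to 100207548, minus strand) encode the filament pair of basal cells. Krt5 was at 61.8, 57.6, 7.19, 71.4 and 70.4 CPM in PBS-injected WT mice, 49.99, 81.8, 45.4, 29.5 and 52.6 CPM in rCD5L-treated WT mice, 86.2, 96.4, 76.4 and 129.99 CPM in PBS-injected CD5L KO mice, and 93.2, 87.5, 55.6, 34.4 and 73.6 CPM in rCD5L-treated CD5L KO mice. Every CD5L KO kidney given PBS lay above every WT kidney given PBS, and replicate 3 of the latter was far below all other kidneys. Krt14 was at 66.4, 48.7, 15.2, 72.2 and 60.8 CPM in PBS-injected WT mice, 40.4, 63.4, 37.9, 31.6 and 48.6 CPM in rCD5L-treated WT mice, 65.4, 76.1, 56.4 and 76.3 CPM in PBS-injected CD5L KO mice, and 78.0, 61.7, 28.9, 8.65 and 54.8 CPM in rCD5L-treated CD5L KO mice, with its lowest level in replicate 4 of the rCD5L-treated CD5L KO mice. The FPKM ratio of Krt5 to Krt14 ranged more than that of the uroplakin pairs, from 0.379 in replicate 3 of the PBS-injected WT mice to 3.18 in replicate 4 of the rCD5L-treated CD5L KO mice. It was 0.379 to 0.947 in PBS-injected WT mice and 1.01 to 1.36 in PBS-injected CD5L KO mice, a separation that was noticed in the values and was not tested. Krt14 shares near-identical stretches with Krt16 and Krt17, and the treatment of multi-mapping reads is not given in the sources used here.

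Krt7 (ENSMUSG00000023039, chromosome 15, 101411043 to 101430313, plus strand) was at 272, 267, 268, 300.5 and 259.6 CPM in PBS-injected WT mice, 242, 253, 256, 219.8 and 243 CPM in rCD5L-treated WT mice, 279, 278, 269 and 315 CPM in PBS-injected CD5L KO mice, and 255, 279, 300.0, 212 and 277 CPM in rCD5L-treated CD5L KO mice. Its groups lay close together, and the 5 rCD5L-treated WT kidneys were all below the 5 given PBS. An antisense gene, Gm671, overlaps Krt7 with at most 58 counts in a kidney, against at least 2897 for Krt7, and without a stated strand setting reads of the pair cannot be told apart. Krt19 (ENSMUSG00000020911, chromosome 11, 100140810 to 100148665, minus strand) ranged from 110.1 to 212 CPM in PBS-injected WT mice, from 132 to 189 CPM in rCD5L-treated WT mice, from 175 to 215 CPM in PBS-injected CD5L KO mice and from 65.1 to 182 CPM in rCD5L-treated CD5L KO mice. All groups overlapped for Krt19.

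Krt20 (ENSMUSG00000035775, chromosome 11, 99428403 to 99438150, minus strand) was at 124, 100.2, 112, 88.2 and 116 CPM in PBS-injected WT mice, 99.7, 95.5, 103, 72.1 and 106 CPM in rCD5L-treated WT mice, 86.2, 101, 105 and 152 CPM in PBS-injected CD5L KO mice, and 99.6, 70.6, 119, 16.2 and 143 CPM in rCD5L-treated CD5L KO mice. The 4 groups overlapped. In replicate 3 of the PBS-injected WT mice, where Krt5 was 9.79-fold and Upk1b 5.61-fold below the median kidney, Krt20 was at 1.11 times its median and Krt7 at its median. In replicate 4 of the rCD5L-treated CD5L KO mice Krt20 was the lowest of all kidneys (16.2 CPM, others 70.6 to 152 CPM). Upk1a and Upk2 there were above those of 11 of the other 18 kidneys, and Upk1b and Krt5 above those of 2. The sum of the injured tubule markers, a list that includes Krt20 itself, was also lowest in that kidney. The part of injured tubule in the Krt20 level was not tested.

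**Figure D1:**
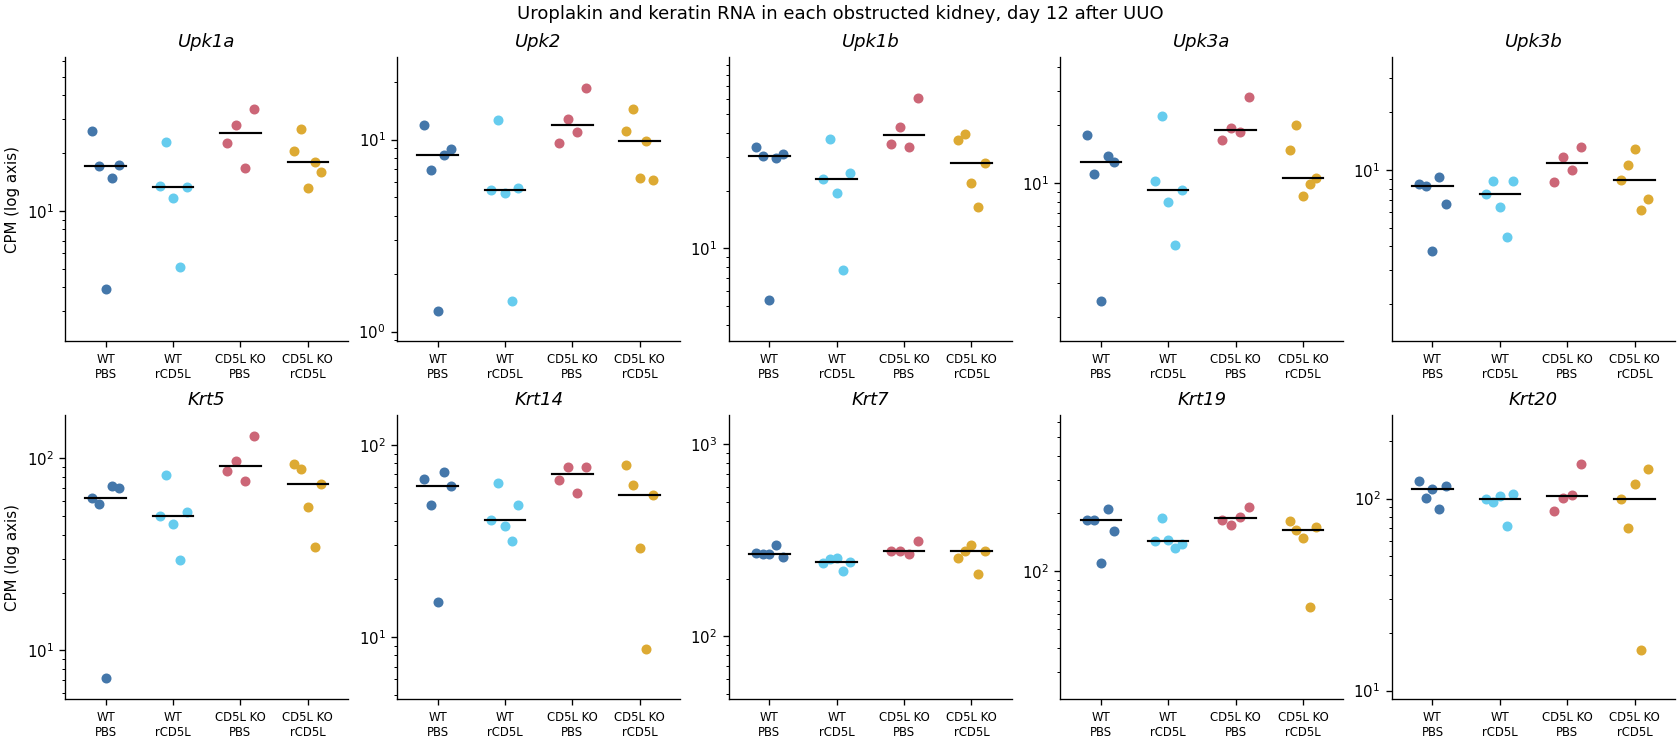
CPM of each member (log axis, every panel spanning the same fold) by group; each point is 1 kidney in order of replicate number and the bar is the group median. The plaque uroplakins and Krt5 each have 1 very low kidney among the PBS-injected WT mice, Krt14 and Krt20 have their lowest kidney among the rCD5L-treated CD5L KO mice, and Krt7 stays between 212 and 315 CPM.

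The kidneys were then compared across members. In replicate 3 of the PBS-injected WT mice, the 4 plaque uroplakins were 4.38-fold (Upk1a) to 6.92-fold (Upk2) below the median of the 19 kidneys, Krt14 3.71-fold and Upk3b 2.30-fold. In replicate 4 of the rCD5L-treated WT mice, the plaque uroplakins were 2.69-fold (Upk3a) to 6.18-fold (Upk2) below it and Krt5 2.39-fold. Beside this, the 6 proximal tubule markers summed to 2151 CPM in the first of these kidneys, the second highest of all, and to 873 CPM in the other, the lowest of all. The 4 ureteric smooth muscle markers summed to 146 CPM and 181 CPM, within the 82.4 to 301 CPM of the 19 kidneys. The part of these cell types in the urothelial levels was not tested.

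**Figure D2:**
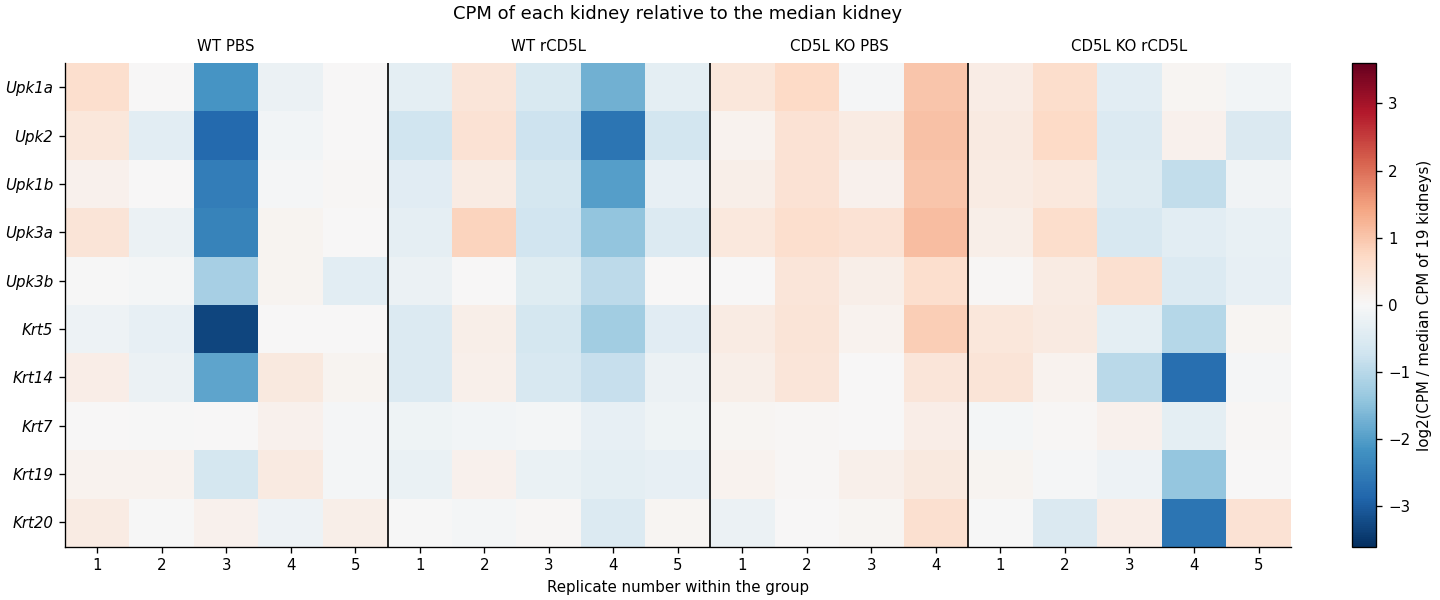
Heat map of log2(CPM / median CPM of the 19 kidneys), members in rows and kidneys in columns by group and replicate number; blue is below and red above the median. Replicate 3 of WT PBS and replicate 4 of WT rCD5L are blue from Upk1a to Krt14, whereas replicate 4 of CD5L KO rCD5L is darkest in Krt14, Krt19 and Krt20.

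All 45 pairs of members were correlated over the 19 kidneys on log2 CPM, with 2-sided permutation tests adjusted over the 45 pairs. The members Upk1a, Upk2, Upk1b, Upk3a and Krt5 gave 10 pairs with Pearson's r of 0.86 to 0.98 and Spearman's rho of 0.81 to 0.96. The largest adjusted permutation p among these pairs was 7.5e-05 for r and 0.000242 for rho. With the group means subtracted, r was still 0.84 to 0.97, and without the 2 kidneys farthest from the median of the gene on the x axis it was 0.70 to 0.95. These correlations were therefore present within groups and did not rest on the 2 low WT kidneys. All of these genes were measured in the same libraries, so they share depth and scaling.

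Upk1b and Krt5, an umbrella cell and a basal cell gene, had r = 0.95 and rho = 0.95 (permutation p = 1e-05 each, the smallest that the draws can give, adjusted p = 4.5e-05 for r), and r = 0.95 without the 2 farthest kidneys. Upk3b followed the plaque uroplakins and Krt5 less closely, with r of 0.80 to 0.86 over 5 pairs, which fell to 0.47 to 0.64 without the 2 farthest kidneys. Krt14 correlated with Krt5 (r = 0.78, rho = 0.88) and with Krt19 (r = 0.93, rho = 0.78). Without the 2 farthest kidneys, the r of Krt14 with Krt5 was 0.81 and with Krt19 it was 0.79. With the plaque uroplakins and Krt5, Krt14 passed in 5 of 5 pairs by both measures (r of 0.55 to 0.78, rho of 0.74 to 0.89). Krt19 passed in 3 of 5 pairs by r (0.44 to 0.67) and in 5 of 5 by rho (0.57 to 0.79). Without the 2 farthest kidneys, the pairs of Krt14 and Krt19 with Upk1a and Upk2 did not pass by r (0.29 to 0.41), and those of Krt19 did not pass by rho either (0.46 and 0.53). Single kidneys also changed these calls by r. Krt14 did not pass with Upk1a (0.43) and Upk2 (0.38) without replicate 3 of the PBS-injected WT mice. Krt19 passed with Upk1a (0.81) and Upk2 (0.84) without replicate 4 of the rCD5L-treated CD5L KO mice, and did not pass with Krt5 (0.66, adjusted permutation p = 0.0544) without replicate 4 of the rCD5L-treated WT mice. Krt20 gave r of -0.01 to 0.26 and rho of -0.06 to 0.06 with the plaque uroplakins and Krt5, none of which passed the permutation test (smallest adjusted p = 0.235 for r and 0.861 for rho). Without the 2 kidneys farthest from the median of the x-axis gene, r was 0.53 with Krt5 and 0.49 with Upk1b (adjusted permutation p = 0.070 and 0.102), while rho was 0.02 and 0.00245. Without replicate 3 of the PBS-injected WT mice, the pair with Krt5 passed by r (0.51, adjusted permutation p = 0.046) but not by rho (0.14). Its r of 0.75 with Krt19, where rho was 0.17, rested on replicate 4 of the rCD5L-treated CD5L KO mice, since r was 0.15 without that kidney and 0.83 without replicate 3 of the PBS-injected WT mice. Krt7 had r of 0.38 to 0.50 with the plaque uroplakins and Krt5, of which the pair with Upk1b passed by r (adjusted permutation p = 0.0409 for r and 0.0584 for rho) and the pair with Krt5 by rho (0.57, adjusted permutation p = 0.0185). With the group means subtracted, 0 of these 5 pairs passed by either measure. Without replicate 3 of the PBS-injected WT mice, 5 of 5 passed by r (0.51 to 0.75) and 2 of 5 by rho. The pair with Upk1b did not pass without replicate 4 of the rCD5L-treated CD5L KO mice (r = 0.48), where that with Upk2 did (r = 0.52), or without replicate 4 of the rCD5L-treated WT mice (r = 0.36). Without the 2 farthest kidneys, r was 0.68 with Krt5 and 0.61 with Upk1b (adjusted permutation p = 0.00866 and 0.0207), and by rho the pair with Krt5 passed (adjusted permutation p = 0.0451). Krt7 correlated with Upk3b (r = 0.62, rho = 0.65, adjusted permutation p = 0.010 and 0.00624), and this pair also passed with the group means subtracted, without the 2 farthest kidneys and on FPKM.

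**Figure D3:**
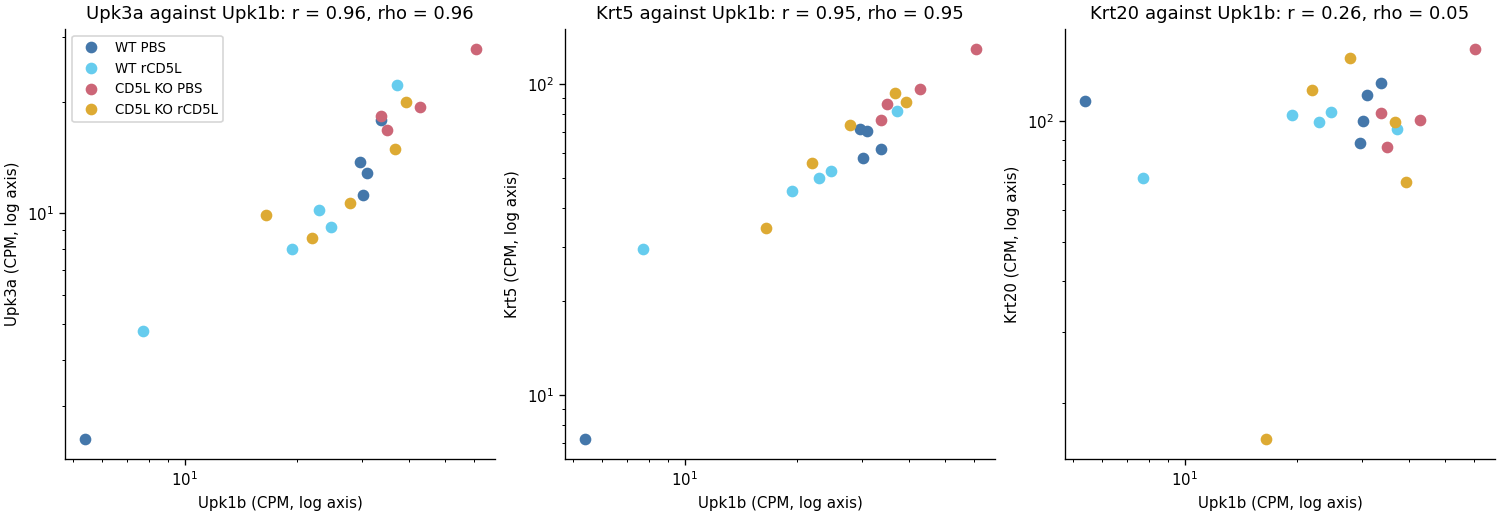
CPM of Upk3a, Krt5 and Krt20 against CPM of Upk1b (log axes), 1 point for each of the 19 kidneys, coloured by group. Upk3a and Krt5 rise with Upk1b over its whole range (r = 0.96 and 0.95), whereas Krt20 shows no such course (r = 0.26), with 112 CPM at the lowest Upk1b.

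**Figure D4:**
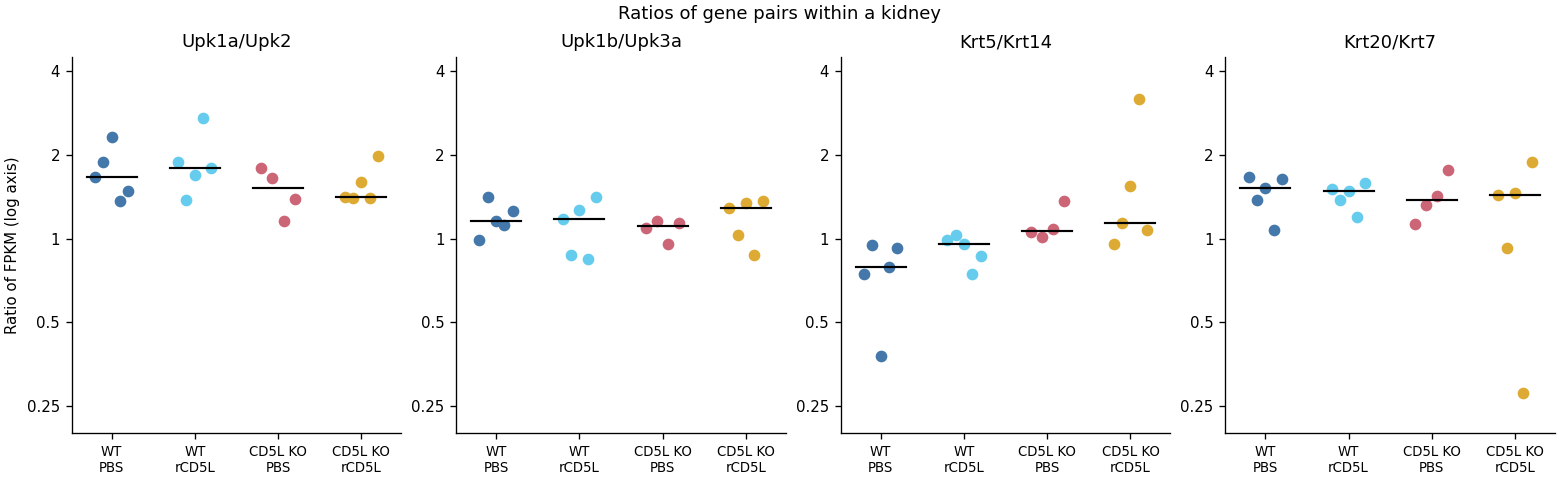
Ratios of FPKM within each kidney (log axis) for the plaque pairs Upk1a/Upk2 and Upk1b/Upk3a, the basal keratin pair Krt5/Krt14, and Krt20/Krt7; points are kidneys and bars group medians. The plaque pairs stay within 1.16 to 2.71 and 0.845 to 1.41, while Krt5/Krt14 and Krt20/Krt7 reach 3.18 and 0.279 in the same CD5L KO kidney given rCD5L.

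Genes whose levels were most like those of a member were looked up among the 15686 genes, by Pearson's r of log2 CPM over the 19 kidneys with the group means subtracted, as a description. For Upk3a these were Upk2 (r = 0.96), Ly6d (0.96), Sprr2a1 (0.96), Psca (0.96) and Upk1a (0.95). For Krt5 they were Sprr2a3 (0.96), Krt15 (0.95), Upk1b (0.95), Ly6d (0.94) and Sprr2a1 (0.94). Ly6d and Sprr2a1 were in both lists, and Ly6d, Psca and Krt15 are among the study's own urothelial markers. Epidermis, which also makes small proline-rich proteins such as Sprr2a1, was checked by its markers, 5 genes that summed to 9.43 to 26.9 CPM. Krt1, Flg and Lor did not exceed 0.416, 0.659 and 1.98 CPM, while Krt10 was at 3.79 to 8.87 CPM and Ivl, which encodes involucrin of the cornified envelope, at 3.38 to 21.1 CPM. Upk3b was most like Cbr2 (0.88), Nipal4 (0.85), Sprr1a (0.85), Ly6d (0.84) and Sprr2a1 (0.83), of which Sprr1a and Ly6d are among the study's urothelial markers. The neighbours of Krt7, Krt19 and Krt20 were different genes (Krt14 was not looked up): Anxa8 (0.98), Krt18 (0.94), Mall (0.94), S100a14 (0.94) and Maea (0.93) for Krt19, Ccdc88c (0.95), Arhgef3 (0.94), Klrg2 (0.94) and Fyb2 (0.94) for Krt20, and Ift140 (0.88), Slc8b1 (0.87), Nbeal2 (0.86), Dtx1 (0.86) and Fen1 (0.86) for Krt7. No uroplakin was among these genes, but Krt18 is one of the study's urothelial markers, and so is Krt19 itself. Without replicate 4 of the rCD5L-treated CD5L KO mice, the same genes had r of 0.80 to 0.94 with Krt19, 0.69 to 0.79 with Krt20 and 0.68 to 0.78 with Krt7, and of these genes Anxa8 alone was still among the 5 nearest to its member.

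Promoter sequence was at hand from RefSeq (GRCm38.p6) for 7 of the 10 members, all but Upk1b, Upk2 and Krt19. The 250 bases before the start of 3 genes that varied together (Upk1a, Upk3a and Krt5) and of 2 whose levels were less like theirs (Krt7 and Krt20) are shown, 5′ to 3′ on the strand of the gene. Capitals mark matches on either strand. For GATA transcription factors only the letters AGATAA were searched, so other forms of their site were not counted. The GC box, bound by factors of the SP family, was searched as GGGCGG in every window. Factors of the ETS family were represented by the letters CAGGAAG alone. The TATA box, where the basal machinery binds, was searched as TATAAA.
Upk1a, chr7:30612735-30612984, minus strand: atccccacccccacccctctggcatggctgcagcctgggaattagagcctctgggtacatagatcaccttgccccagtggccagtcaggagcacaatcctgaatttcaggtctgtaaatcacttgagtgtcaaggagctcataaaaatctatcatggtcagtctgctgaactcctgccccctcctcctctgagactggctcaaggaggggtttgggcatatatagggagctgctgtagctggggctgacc
Upk3a, chr15:85016891-85017140, plus strand: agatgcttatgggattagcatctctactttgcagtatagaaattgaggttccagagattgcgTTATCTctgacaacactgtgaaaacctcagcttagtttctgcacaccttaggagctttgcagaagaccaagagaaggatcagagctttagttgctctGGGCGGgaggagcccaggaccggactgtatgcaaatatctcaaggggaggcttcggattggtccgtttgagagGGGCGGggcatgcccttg
Krt5, chr15:101712906-101713155, minus strand: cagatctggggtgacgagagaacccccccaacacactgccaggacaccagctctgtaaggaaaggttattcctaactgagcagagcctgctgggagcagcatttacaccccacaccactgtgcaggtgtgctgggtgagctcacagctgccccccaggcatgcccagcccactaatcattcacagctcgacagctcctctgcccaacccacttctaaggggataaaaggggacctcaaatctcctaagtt
Krt7, chr15:101412153-101412402, plus strand: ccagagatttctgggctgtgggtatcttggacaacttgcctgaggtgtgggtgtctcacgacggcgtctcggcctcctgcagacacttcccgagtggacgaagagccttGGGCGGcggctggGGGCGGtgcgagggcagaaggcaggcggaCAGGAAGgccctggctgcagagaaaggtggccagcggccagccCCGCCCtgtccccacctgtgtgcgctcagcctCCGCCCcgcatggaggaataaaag
Krt20, chr11:99438154-99438403, minus strand: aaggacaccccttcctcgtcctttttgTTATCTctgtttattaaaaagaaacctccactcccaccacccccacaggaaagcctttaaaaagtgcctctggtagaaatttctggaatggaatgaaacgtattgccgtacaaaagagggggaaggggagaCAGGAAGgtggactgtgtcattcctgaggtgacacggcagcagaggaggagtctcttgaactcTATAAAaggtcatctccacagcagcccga

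The windows of Krt7 and Krt14 lie inside the spans that the count table gives for these genes and that of Upk1a overlaps its span, since RefSeq places those starts further in. A match to AGATAA was found in Upk3a and Krt20, that is in 2 of the 7 members, and in 9.99% of all 32851 promoter windows. GC boxes were found in Upk3a (2 matches) and Krt7 (4 matches) and in 32.7% of all windows. An ETS match was found in Upk3b, Krt7 and Krt20 and in 10.8% of all windows, and a TATA box in Krt20 alone and in 12.4% of all windows. AACNNGTT (grainyhead-like factors), TGTTTAC (FOXA factors), TGANTCA (AP-1) and the DR1 element of PPAR with RXR were found in 0 of the 7 members and in 3.64%, 3.17%, 6.75% and 0.0335% of all windows. No searched motif was shared by Upk1a, Upk3a and Krt5.

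The first comparison asked whether loss of CD5L goes with a difference in urothelial RNA in the obstructed kidney. Of the 10 members, 0 were called in CD5L KO against WT, both given PBS (edgeR, adjusted p under 0.05), while 10.5% of the 17579 genes tested were called. All 10 fitted fold changes were above 0, with a median of 0.62 on the log2 scale against -0.00464 over all genes tested. Many members vary together, so their signs are not independent of each other in this or the later comparisons. At an unadjusted p under 0.05 there were 2 members, Upk3a and Upk3b, beside 4669 genes or 26.6% of all genes tested, so the members' share was no higher than that of all genes. With the replicate number as a block there were 7 members, beside 28.6% of all genes tested, and 0 of them were called. Upk3a averaged 20.6 ± 4.99 CPM (SD, n = 4) in CD5L KO and 11.6 ± 5.68 CPM (SD, n = 5) in WT mice, a log2 fold change of 0.82 (95% interval 0.03 to 1.61, edgeR adjusted p = 0.174). Upk3b averaged 10.9 ± 1.98 and 7.27 ± 2.17 CPM, a log2 fold change of 0.58 (95% interval 0.10 to 1.05, edgeR adjusted p = 0.115).

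Krt5 had the largest fold change of the members, 97.2 ± 23.3 CPM in CD5L KO against 53.7 ± 26.6 CPM in WT mice or 0.85 on the log2 scale (95% interval -0.07 to 1.77, edgeR adjusted p = 0.225). It was the 1 member of 10 whose groups did not overlap, as was true of 14.1% of all genes tested. Without replicate 3 of the PBS-injected WT mice, its log2 fold change was smaller, 0.57, but it was called (edgeR adjusted p = 0.0236, the lowest over its 17 alternatives, the highest being 0.459). The other plaque genes had log2 fold changes of 0.79 (Upk2), 0.72 (Upk1b) and 0.67 (Upk1a), which became 0.52, 0.46 and 0.42 without that kidney. Krt14 was at 0.37 and Krt19 at 0.16, or 0.14 and 0.04 without it. Krt7 was at 0.05 (95% interval -0.08 to 0.19) and Krt20 at 0.03 (95% interval -0.28 to 0.34), the last with -0.15 to 0.13 over the kidneys left out in turn. The median over the 10 members became 0.42 without that kidney. With DESeq2, Upk3b was called (log2 fold change 0.58, adjusted p = 0.0476; 0.0476 to 0.367 over its 17 alternatives) and no other member was, beside 14.9% of all genes tested.

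The second comparison asked whether injected rCD5L changes these genes where endogenous CD5L is lacking. In CD5L KO mice, 0 of the 10 members were called for rCD5L against PBS, beside 0% of the 17467 genes tested by edgeR (502 genes or 2.87% at an unadjusted p under 0.05, and 10 genes or 0.0573% called by DESeq2, no member among them). All 10 fitted fold changes were below 0, with a median of -0.42 on the log2 scale against 0.02 over all genes tested. Upk3a averaged 12.8 ± 4.68 CPM (SD, n = 5) after rCD5L and 20.6 ± 4.99 CPM (SD, n = 4) after PBS, which is -0.67 on the log2 scale (95% interval -1.24 to -0.10, edgeR adjusted p = 0.897). It was the 1 member at an unadjusted p under 0.05, and Upk1b followed at -0.58 (95% interval -1.16 to 0.000397). No member lacked overlap between the groups, beside 2.34% of all genes tested. Leaving out replicate 4 of the mice given rCD5L took Krt14 from -0.55 to -0.29, Krt19 from -0.38 to -0.20 and Krt20 from -0.30 to -0.02, none of which was called with or without it. Leaving out replicate 4 of the mice given PBS took Upk3a to -0.49, Upk1b to -0.37, Upk2 from -0.43 to -0.21, Upk1a from -0.41 to -0.24 and Krt5 from -0.49 to -0.32. The PBS kidneys of CD5L KO mice served in both comparisons, so the signs of the first and second are not independent of each other.

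In WT mice, 0 of the 10 members were called for rCD5L against PBS, beside 0% of the 17455 genes tested by edgeR (2797 genes or 16% at an unadjusted p under 0.05, and 542 genes or 3.11% called by DESeq2, no member among them). All 10 fitted fold changes were below 0 here too, that of Upk3b barely so (-0.00029 on the log2 scale). The median log2 fold change of the members was -0.17, against 0.00456 over all genes tested. Krt7 averaged 243 ± 14.1 CPM after rCD5L and 273 ± 15.7 CPM after PBS (SD, n = 5 each), which is -0.16 on the log2 scale (95% interval -0.28 to -0.04, edgeR adjusted p = 0.193). It was the 1 member at an unadjusted p under 0.05 and the 1 member without overlap between the groups, beside 3.58% of all genes tested. For the plaque uroplakins and Krt5 the log2 fold changes were -0.29 to -0.04 with wide intervals, as for Krt5 (-0.90 to 0.82), and each group held 1 of the low kidneys. The sign of Upk1a, Upk1b, Upk3a, Upk3b and Krt5 turned in at least 1 of 18 alternatives each, and Krt5 moved between -0.32 without replicate 3 of the PBS mice and 0.11 without replicate 4 of the rCD5L mice, and to 0.24 with limma on log2(FPKM + 0.1).

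Between CD5L KO and WT mice, both given rCD5L, 0 of the 10 members were called, beside 0% of the 17360 genes tested by edgeR (3090 genes or 17.8% at an unadjusted p under 0.05, and 150 genes or 0.864% called by DESeq2, no member among them). Fold changes were above 0 for 8 members, with Upk2 at 0.66 (95% interval -0.31 to 1.62) and Upk1a at 0.51 (95% interval -0.19 to 1.21) on the log2 scale, and the median was 0.29 against -0.01 over all genes tested. Over the kidneys left out in turn, Upk2 ranged from 0.41 to 1.10 and Upk1a from 0.30 to 0.79, the lower values without replicate 4 and the higher without replicate 2 of the WT mice. Without replicate 4 of the CD5L KO mice, Krt14 went from 0.06 to 0.32, Krt19 from -0.04 to 0.14 and Krt20 from -0.10 to 0.17. All members overlapped between the groups, whereas 7.38% of all genes tested did not. The interaction, which asks whether the rCD5L effect differs between genotypes, called 0 of the 10 members, beside 0% of the 18454 genes tested by edgeR (1154 genes or 6.25% at an unadjusted p under 0.05, and 0 genes called by DESeq2). Upk3a had the largest interaction in size, -0.57 on the log2 scale (95% interval -1.79 to 0.65), an interval that spans a fold change of 0.289 to 1.57, and it was -0.14 without replicate 2 of the rCD5L-treated WT mice.

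**Figure D5:**
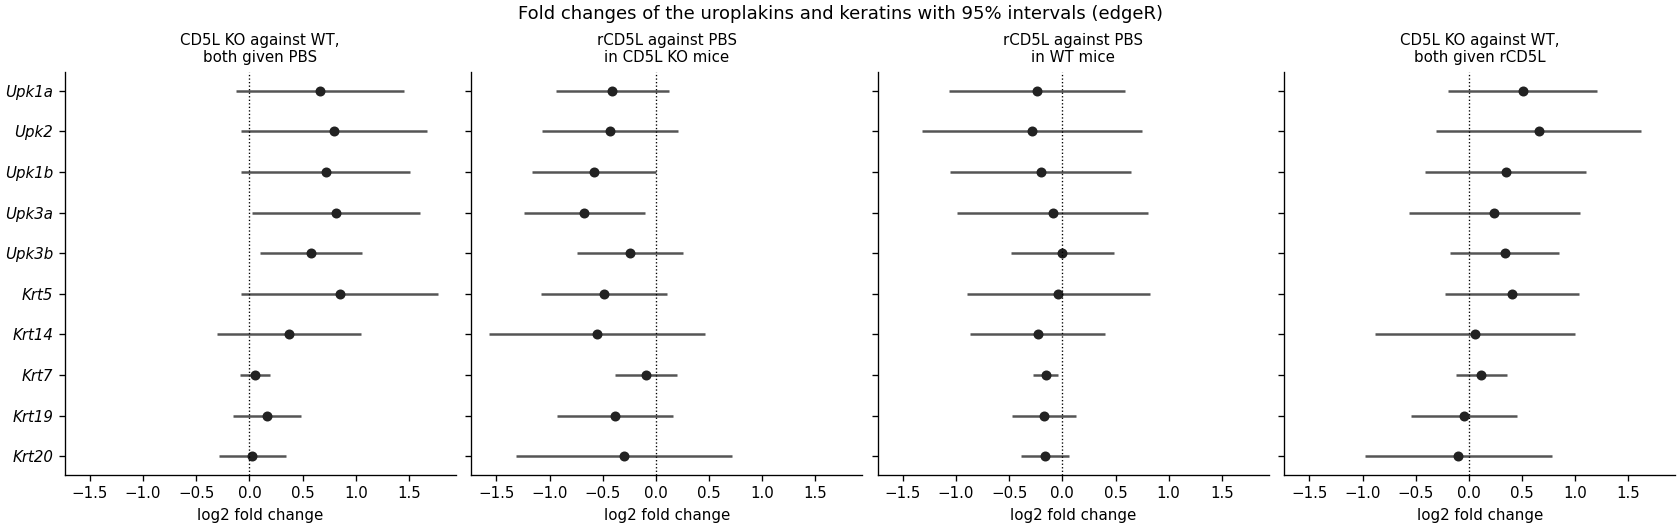
Log2 fold changes of the members (points) with 95% intervals (lines) from edgeR in the 4 comparisons of groups. All 10 points lie above 0 in PBS-injected CD5L KO against WT mice and below 0 for rCD5L in CD5L KO mice, the intervals of the plaque uroplakins are wide and that of Krt7 is narrow.

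Genes that act with the members were read from the same fits, from lists drawn up with earlier results of these data known. Of 10 factors of urothelial differentiation, 1 was called higher and 0 lower in PBS-injected CD5L KO against WT mice, beside 5.13% of all genes called higher. It was Shh, a ligand that urothelium secretes to the stroma below it, with a log2 fold change of 0.96 (edgeR adjusted p = 0.0378) on 9 to 39 counts per kidney, and the list's median was 0.40. The 7 genes of uroplakin trafficking and the plaque's partners had 0 called and a median of 0.08, and the 9 tested of 11 other keratins had 0 called and a median of 0.12. Of the 23 urothelial markers that the study used for its single-cell data, 6 of them members, 1 was called higher and 0 lower, with a median of 0.48 (0.40 over the 17 that are no members). The 23 markers summed to 2715 to 2951 CPM in PBS-injected CD5L KO mice and to 1944 to 2545 CPM in PBS-injected WT mice, without overlap. The marker called was Rack1, a ribosome-bound scaffold protein made in all cells, with a log2 fold change of 0.32 (edgeR adjusted p = 0.00773) and means of 1033 and 825 CPM within these sums. In the remaining comparisons of groups and in the interaction, 0 genes of these 4 lists were called.

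Markers of other cells that make some of the members were read in the same way. Among 6 injured tubule markers, Krt20 included, Spp1, the secreted phosphoprotein osteopontin, was called higher in PBS-injected CD5L KO than WT mice (log2 fold change 0.51, edgeR adjusted p = 0.0143), with means of 22217 and 15502 CPM. The sum of the 6 markers, most of it Spp1, was 22391 to 27499 CPM in the former and 13913 to 20086 CPM in the latter, and the other markers had log2 fold changes of 0.03 (Krt20) to 0.32 (Havcr1), none of them called. Of 6 tested mesothelial markers, Upk3b included, Gpm6a was called higher (0.35, edgeR adjusted p = 0.00902), with sums of 102 to 122 CPM and 82.3 to 101 CPM. The 7 collecting duct markers had 0 called and sums of 413 to 604 CPM and 326 to 606 CPM, and the 4 ureteric smooth muscle markers had 0 called and sums of 123 to 229 CPM and 146 to 301 CPM. Markers of the epididymis, a tissue outside the kidney, summed to 7.87 to 21.3 CPM in PBS-injected and 23.3 to 59.0 CPM in rCD5L-treated CD5L KO mice, without overlap, and to 11.9 to 24.3 CPM and 15.8 to 38.9 CPM in WT mice. The part of these cell types in the differences of the members was not tested.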

How the data were processed

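Whole obstructed kidneys of 19 mice were measured by bulk RNA-seq. Samples were grouped by the genotype and treatment in their labels, and every column was matched to its sample by library name (columns without a sample: 0). Raw gene counts were deposited. The authors obtained them from random hexamer libraries, read from both ends, with Trimmomatic, HISAT2 (GRCm38) and featureCounts, per the labels and the submitters' processing notes. Versions, the strand setting and the treatment of reads that match several places are not given in the sources used here. The authors also deposited FPKM values of the same genes, whose implied library sizes were 1.20 to 1.24 times the TMM-scaled total counts.

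The quasi-likelihood test of edgeR 4.0.16 under R 4.3.3 was run over all genes (glmQLFit, glmQLFTest; TMM factors; filterByExpr, min.count 10), with Benjamini-Hochberg adjustment and a threshold of 0.05. Each fit held the 2 groups of its comparison, and that of the interaction held all 4. No overlap means that every kidney of a group lies above every kidney of the other. CPM used TMM-scaled totals, log2 CPM a prior count of 2, and the permutation tests 100000 draws (numpy 2.4.6). Correlated levels were also computed as log2(FPKM + 0.1), in the deposited unit. Other settings were RLE factors, DESeq2 1.42.0, no filter, a floor of 10 counts in all kidneys, 1 fit of all 19 kidneys, the replicate block, limma 3.58.1 on log2(FPKM + 1) or log2(FPKM + 0.1), and leaving out each kidney in turn. The spread, the correlations and the nearest genes without single kidneys were added after seeing the data. Total counts of 17917491 to 23847090 gave each member at least 27 counts, and the limit of 3 counts for a count of 0 covers counting error only. The 36 pairs of kidneys of a group differed by a chi-square of at least 6.63 per degree of freedom, so each was counted once. All tests were tried on simulated counts with 200 changed genes.

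All members were named. Genes of the 15 fixed lists were named where called (at most the 5 smallest p per list and comparison) or as defining markers, and the 5 genes most like Upk3a, Upk3b, Krt5, Krt7, Krt19 and Krt20 by rank, of which 1 is not reported here. The ratios were chosen without such a rule. The members and lists were chosen with earlier results of these data known. Promoter windows came from RefSeq.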

Additional observations from a re-analysis of the deposited data

Results flagged for a closer look

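Over the 40 sets of a member in a group, 8 held a kidney far from the others by Dixon's test, which chance alone gives in about 1 of 20 sets. The members vary together, so these are not independent. Replicate 3 of the PBS-injected WT mice was the lowest of its group for Upk2 (1.29 CPM, next 6.90 CPM), Upk1b (5.38 CPM, next 29.6 CPM), Upk3a (2.43 CPM, next 11.2 CPM), Krt5 (7.19 CPM, next 57.6 CPM) and Krt14 (15.2 CPM, next 48.7 CPM). Replicate 4 of the rCD5L-treated WT mice was the lowest of its group for Krt20, at 72.1 CPM with the next at 95.5 CPM. Krt19 stood apart in 2 groups, with the highest level in replicate 2 of the rCD5L-treated WT mice (189 CPM, next 145 CPM) and the lowest in replicate 4 of the rCD5L-treated CD5L KO mice (65.1 CPM, next 149 CPM).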

How the results depend on the processing

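The number of members called in PBS-injected CD5L KO against WT mice was 1 with DESeq2 (Upk3b) and 0 to 1 over the kidneys left out in turn (1, Krt5, without replicate 3 of the PBS-injected WT mice), against 0 with edgeR. No member was called in the other comparisons under any alternative, and 958 alternative fold changes of single members kept their side of the threshold while these 2 did not. In those other comparisons edgeR called 0 genes of the whole table. A change of sign between fold changes that were not called was not counted as a change. No label says that a replicate number marks a shared litter, batch or day. Kidneys with the same number correlated by -0.20 to 0.29 (median -0.005, 27 pairs) in their deviations from the group means, so the numbers were not taken to pair samples. With a replicate block, 0 members were called in each of the 5 comparisons, 2132 genes against 1850 were called in PBS-injected CD5L KO against WT mice, and 7 members against 2 had an unadjusted p under 0.05 there, beside 28.6% against 26.6% of all genes tested. The number of genes called in that comparison was 12 with all 19 kidneys in 1 fit and 1015 to 2062 over the kidneys left out, and limma on log2(FPKM + 0.1) called 457 genes higher there against 901. In rCD5L-treated CD5L KO against WT mice, 1291 genes were called with all 19 kidneys in 1 fit against 0. For rCD5L in WT mice, 137 genes were called without a filter and 39 without replicate 1 of the PBS mice, against 0. Of the 45 correlations of members, 33 passed as reported, 32 with group means subtracted, 23 without the 2 farthest kidneys and 30 to 35 without 1 of 3 kidneys that stood apart (added after seeing the data). The cause of these changes was not tested. Upk2 rested on as few as 27 counts in a kidney, the lowest depth of any member.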
